A study of Mus musculus with 4 samples.

Results

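The 8 adenylyl cyclase genes *Adcy1*, *Adcy2*, *Adcy3*, *Adcy5*, *Adcy6*, *Adcy7*, *Adcy8* and *Adcy9* were examined in RNA sequencing of mouse prefrontal cortex (PFC). They were taken by symbol and are 8 of the 23420 gene symbols counted, and all 8 were kept among the 16232 genes left after edgeR's filterByExpr. The samples came from C57BL6/J mice injected in the PFC with AAV9. The control group (2 samples, labelled GFP-AAV9) received GFP virus, and the *Ash1L* shRNA group (2 samples, labelled shRNA_ASH1L-AAV9) received a GFP-tagged virus carrying a short hairpin RNA against *Ash1L*, a histone lysine methyltransferase gene. The study's methods call the control virus scrambled shRNA, give injection at 5 weeks and pool 3 mice per sample, while the series text gives an age of 6 to 8 weeks, 3 shRNA mice and 2 control mice. RNA was taken from tissue punches containing GFP fluorescence, so each sample mixes infected and uninfected cells of every type in the punch.

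Adenylyl cyclases are membrane enzymes that make the second messenger cyclic AMP (cAMP) from ATP. Most are switched on by the G protein subunit Gs, acting downstream of receptors for dopamine, noradrenaline, serotonin and neuropeptides, and cAMP then acts through protein kinase A, Epac proteins and the transcription factor CREB. The isoforms differ in how they read calcium. AC1 and AC8, encoded by *Adcy1* and *Adcy8*, are stimulated by calcium bound to calmodulin and couple synaptic calcium entry to cAMP in forebrain neurons, whereas AC5 and AC6, encoded by *Adcy5* and *Adcy6*, are inhibited by calcium. AC2 and AC7 are stimulated by G protein βγ subunits, AC3 is known from olfactory neurons and from the primary cilia of neurons, and AC9 responds little to the plant compound forskolin, which activates the other membrane isoforms.

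All 8 genes had a mean level below control in the *Ash1L* shRNA samples, and 3 of them were DOWN, *Adcy1*, *Adcy3* and *Adcy5*. DOWN takes the limits of the study, P under 0.05 and at least a 1.2-fold lower level, applied here to edgeR's unadjusted P, and UP is its counterpart. *Adcy1*, the most abundant of the 8 per length, stood at 65.4% of control, *Adcy3* at 73.2% and *Adcy5* at 76.1%. Over all genes tested, 8.28% were DOWN and 8.61% were UP, so 3 of 8 DOWN and 0 of 8 UP are read against those shares. None of the 8 had an adjusted p under 0.05 by edgeR's quasi-likelihood test (Benjamini-Hochberg over all genes tested), and 1 gene of the whole table, or 0.00616%, did. By DESeq2 and by edgeR's likelihood ratio test no member passed that threshold either, while 4 and 3 members had an unadjusted P under 0.05.

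The sequence before the start site is shown for the 3 genes that were DOWN, since the targeted protein modifies histones. Each line gives the 250 bases upstream of the RefSeq transcription start (GRCm38.p6), 5′ to 3′ on the gene's strand. Capitals mark 3 motifs on either strand, the half-site of the cAMP response element (TGACG), the GC box (GGGCGG) and the E-box (CACGTG), which do not overlap in these windows. *Adcy1* is read from chr11:7063183-7063432 (plus strand), *Adcy3* from chr12:4133147-4133396 (plus strand, the upstream of its 2 RefSeq starts) and *Adcy5* from chr16:35154614-35154863 (plus strand).
Adcy1: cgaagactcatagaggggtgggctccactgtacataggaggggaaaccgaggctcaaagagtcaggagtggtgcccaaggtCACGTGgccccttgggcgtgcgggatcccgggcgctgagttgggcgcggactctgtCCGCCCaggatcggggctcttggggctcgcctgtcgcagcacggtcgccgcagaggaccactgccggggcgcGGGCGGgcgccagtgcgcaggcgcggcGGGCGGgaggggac
Adcy3: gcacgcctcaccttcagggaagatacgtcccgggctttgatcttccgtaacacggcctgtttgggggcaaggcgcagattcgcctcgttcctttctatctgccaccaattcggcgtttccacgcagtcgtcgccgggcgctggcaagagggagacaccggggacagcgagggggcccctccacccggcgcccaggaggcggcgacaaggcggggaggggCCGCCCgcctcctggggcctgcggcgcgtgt
Adcy5: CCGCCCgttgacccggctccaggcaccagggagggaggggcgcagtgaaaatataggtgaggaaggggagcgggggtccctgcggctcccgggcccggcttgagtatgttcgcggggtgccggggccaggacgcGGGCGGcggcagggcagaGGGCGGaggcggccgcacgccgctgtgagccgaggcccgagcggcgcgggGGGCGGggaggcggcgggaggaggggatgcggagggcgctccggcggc
All 3 windows printed were rich in G and C, at 71.2% for *Adcy1*, 68.8% for *Adcy3* and 78.0% for *Adcy5*, against a median of 52.4% over 32851 RefSeq promoter windows of the same length. They held 26, 27 and 32 CpG dinucleotides respectively, against a median of 6. GC boxes numbered 3 in *Adcy1*, 1 in *Adcy3* and 4 in *Adcy5*, and 32.7% of all windows held at least 1. The E-box was present in *Adcy1* only among these 3, and in 6.02% of all windows. The half-site of the cAMP response element was in none of the 3 windows, and 17.8% of all windows held it. The second RefSeq start of *Adcy3* had a window of 56% G and C with 6 CpG dinucleotides and no GC box, near the median of all windows. By the GENCODE positions used below, *Adcy3* starts at 4133103. Both of its windows thus lie inside the annotated gene and not upstream of that start. Among genes that were not DOWN, the window of *Adcy2* had 73.2% G and C and 2 GC boxes, and that of *Adcy9* had 78.8% G and C, 4 GC boxes and 1 half-site. The 3 windows of *Adcy7* had 54 to 56.4% G and C, 3 to 5 CpG dinucleotides and at most 1 GC box. They too lie inside the annotated gene, which starts at 88272403. RefSeq entries were matched for 6 of the 8 genes, and *Adcy6* and *Adcy8* were not matched.

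The counts summed to between 14251190 and 35764874 per sample, with the lowest total in control sample 1. For the 8 genes the lowest count in any sample was 405 (*Adcy7* in control sample 1), where counting error alone is 4.97% of the value, so counting error was small beside the differences described for the abundant members. The targeted gene *Ash1l* had 245 and 290 CPM (read counts scaled to a common library size, with TMM normalisation) in control samples 1 and 2, and 216 and 138 in *Ash1L* shRNA samples 1 and 2. Its log2 fold change was -0.60 ± 0.22 (SE), with an adjusted p of 0.275 by edgeR's quasi-likelihood test, and it was DOWN. That call was lost with the gene length offset and without control sample 1, control sample 2 or *Ash1L* shRNA sample 2, and the log2 fold change ran from -0.97 to -0.31 with single samples left out. The median log2 fold change over all genes tested was -0.00273, and 50.3% of the genes had a log2 fold change below 0. TMM assumes that most genes are unchanged, which by itself holds this median near 0. The 8 genes were thus lower relative to the genes as a whole, and absolute levels cannot be read from these values. Both *Ash1L* shRNA samples lay below both controls for 26.8% of all genes and above both controls for 26.5%. For the adenylyl cyclases these numbers were 6 of 8 and 0 of 8. With 2 samples in a group, an exact two-sided permutation test of a single gene cannot give a p below 0.333.

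Among the calcium-stimulated isoforms, *Adcy1* (ENSMUSG00000020431, chromosome 11 of mm10, 7063489 to 7178506) had 1607 and 1511 CPM in control samples 1 and 2, and 1228 and 812 CPM in *Ash1L* shRNA samples 1 and 2. The control samples lay close together, both *Ash1L* shRNA samples lay below them, and *Ash1L* shRNA sample 2 was the lowest by a wide margin. The log2 fold change was -0.61 ± 0.20 (SE), with an adjusted p of 0.261 by edgeR's quasi-likelihood test. *Adcy8* (ENSMUSG00000022376, chromosome 15, 64697084 to 64922296) had 43.8 and 34.2 CPM in control samples and 35.6 and 26.2 CPM in *Ash1L* shRNA samples. Its groups overlapped, since *Ash1L* shRNA sample 1 lay above control sample 2. Its log2 fold change of -0.33 ± 0.20 (SE) was not called, with an adjusted p of 0.427 by edgeR's quasi-likelihood test.

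Among the calcium-inhibited isoforms, *Adcy5* (ENSMUSG00000022840, chromosome 16, 35154877 to 35305738), the main isoform of the striatum, had 116 and 130 CPM in control samples and 95.8 and 91.5 CPM in *Ash1L* shRNA samples. The groups were separate and the *Ash1L* shRNA samples were nearly equal to each other, unlike those of *Adcy1*. The log2 fold change was -0.39 ± 0.12 (SE), with an adjusted p of 0.260 by edgeR's test. *Adcy6* (ENSMUSG00000022994, chromosome 15, 98589973 to 98610076), a widely expressed close relative of *Adcy5*, had 56.4 and 63.7 CPM in control samples and 51.0 and 48.2 CPM in *Ash1L* shRNA samples. Its groups were separate too, and its log2 fold change of -0.28 ± 0.12 (SE) was not called, with an adjusted p of 0.315 by edgeR's test.

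Among the isoforms placed in neither calcium class here, *Adcy3* (ENSMUSG00000020654, chromosome 12, 4133103 to 4213525) had 58.8 and 64.8 CPM in control samples and 50.6 and 39.8 CPM in *Ash1L* shRNA samples. The groups were separate, with *Ash1L* shRNA sample 2 the lowest, and the log2 fold change was -0.45 ± 0.15 (SE) with an adjusted p of 0.261 by edgeR's test. *Adcy3* shares 22.1% of its exon bases with *Cenpo*, a kinetochore gene on the opposite strand, and whether the counting used strand is not given in the sources used here. *Cenpo* itself had 5.17 and 5.45 CPM in control samples and 4.27 and 4.34 CPM in *Ash1L* shRNA samples. *Adcy2* (ENSMUSG00000021536, chromosome 13, 68620043 to 68999541), one of the isoforms stimulated by βγ subunits, had 252 and 277 CPM in control samples and 232 and 178 CPM in *Ash1L* shRNA samples. Its groups were separate and its log2 fold change was -0.37 ± 0.16 (SE), not called, with an adjusted p of 0.301 by edgeR's test.

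*Adcy7* (ENSMUSG00000031659, chromosome 8, 88272403 to 88329962), the other isoform stimulated by βγ subunits, had 28.7 and 31.7 CPM in control samples and 28.8 and 24.6 CPM in *Ash1L* shRNA samples. The groups overlapped, and the log2 fold change of -0.18 ± 0.15 (SE) was the smallest of the 8, with an adjusted p of 0.548 by edgeR's test. *Adcy9* (ENSMUSG00000005580, chromosome 16, 4287529 to 4420498) had 121 and 115 CPM in control samples and 110 and 95.0 CPM in *Ash1L* shRNA samples. Its groups were separate, and its log2 fold change of -0.20 ± 0.12 (SE) was not called, with an adjusted p of 0.419 by edgeR's test.

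**Figure D1:**
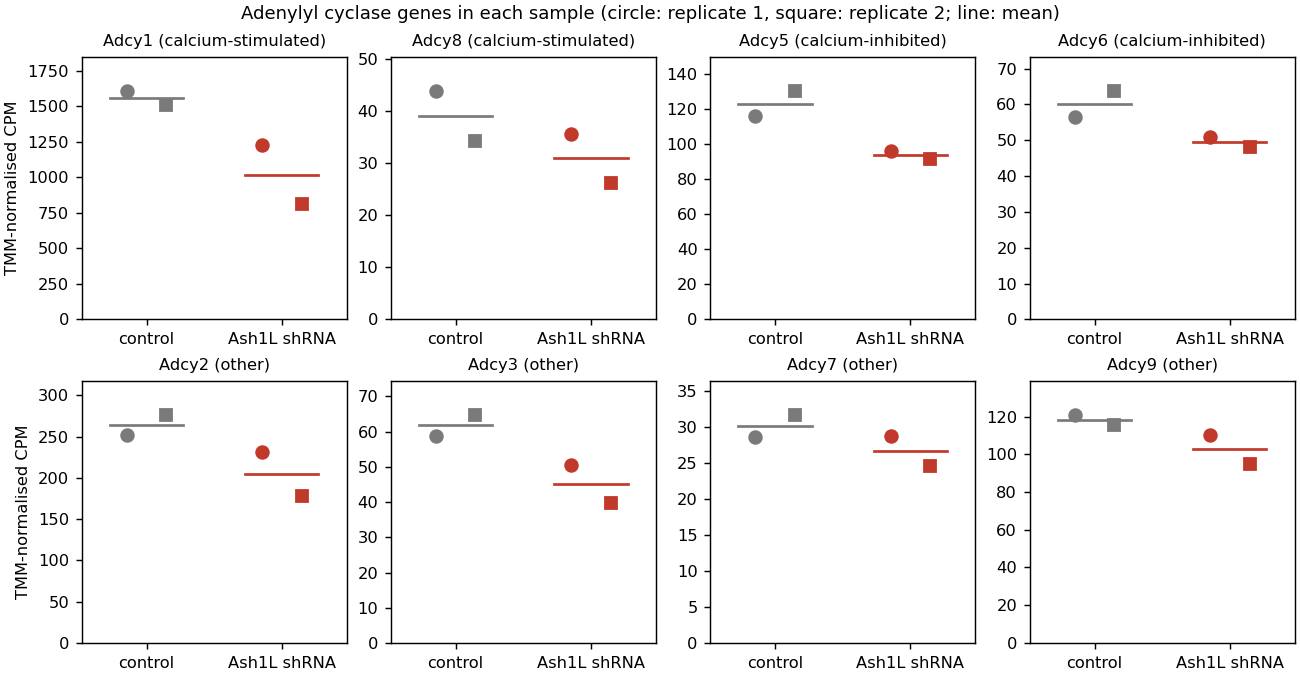
TMM-normalised CPM (linear axis from 0, scaled separately for each gene) of the 8 adenylyl cyclase genes in the control and *Ash1L* shRNA samples; circles are replicate 1, squares are replicate 2 and lines are group means. The groups are separate for 6 genes and overlap for *Adcy8* and *Adcy7*, and the *Adcy1* mean is 1559 in control and 1020 in *Ash1L* shRNA samples.

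*Ash1L* shRNA sample 2 was lower than *Ash1L* shRNA sample 1 for every one of the 8 genes. Relative to the control mean, the log2 level of *Adcy1* was -0.34 in *Ash1L* shRNA sample 1 and -0.94 in sample 2. That of *Adcy5* was -0.36 and -0.42. The median over the 8 genes was -0.21 in sample 1 and -0.49 in sample 2, and *Ash1l* itself was at -0.31 and -0.95. The summed CPM of the 8 genes was 2284 and 2228 in control samples and 1832 and 1315 in *Ash1L* shRNA samples.

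The call DOWN depended on single samples. Without control sample 1, *Adcy5* was the only DOWN member, against 4.14% of all genes tested. Without control sample 2 none of the 8 was DOWN, against 1.86% of all genes. Without *Ash1L* shRNA sample 2, *Adcy1* and *Adcy5* were DOWN, against 5.05%. Without *Ash1L* shRNA sample 1, 6 of the 8 were DOWN, all but *Adcy6* and *Adcy7*, against 16.5% of all genes. In that last fit *Adcy1*, *Adcy2* and *Adcy3* also had an adjusted p under 0.05, the smallest being 0.00498 for *Adcy1* (edgeR's quasi-likelihood test), as did 8.23% of all genes in the direction of lower levels. With 1 sample left in a group, that sample is assumed to vary like the others. The log2 fold change stayed below 0 for all 8 genes with each sample left out.

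Levels were compared between genes per kilobase of annotated exon. In control samples *Adcy1* led with a mean of 125 ± 5.4 (SD, n = 2) CPM per exon kilobase, followed by *Adcy2* with 62.8 ± 4.1. *Adcy9* (22.7), *Adcy5* (17.1), *Adcy3* (9.89), *Adcy6* (8.85), *Adcy8* (4.78) and *Adcy7* (4.49) followed. *Adcy1*, *Adcy2*, *Adcy9*, *Adcy5* and *Adcy3* thus stood in a clear order, each above the next in all 4 samples. *Adcy3* was above *Adcy6* in 3 of 4 samples, and *Adcy8* and *Adcy7* overlapped in both groups, so neither pair can be ordered beyond the spread. With coding length in place of exon length, *Adcy5* moved ahead of *Adcy9* in control samples (32.5 against 29.1 CPM per coding kilobase) and behind it in the mean of *Ash1L* shRNA samples (24.7 against 25.3).

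Per exon kilobase, the level summed over the 8 genes was 255 in both control samples, 212 in *Ash1L* shRNA sample 1 and 158 in *Ash1L* shRNA sample 2. *Adcy1* made up 50.4% and 47.3% of this sum in control samples and 46.3% and 40.9% in *Ash1L* shRNA samples. The size of this share depended on the length used. Per coding kilobase it was 71.5% and 69.0% in control samples and 68.2% and 63.1% in *Ash1L* shRNA samples. By either length the share of *Adcy1* was smaller in both *Ash1L* shRNA samples, although control sample 2 and *Ash1L* shRNA sample 1 differed by little. Per exon kilobase, the sum of the other 7 genes was also lower, at 127 and 135 in control samples and 114 and 93.5 in *Ash1L* shRNA samples.

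**Figure D2:**
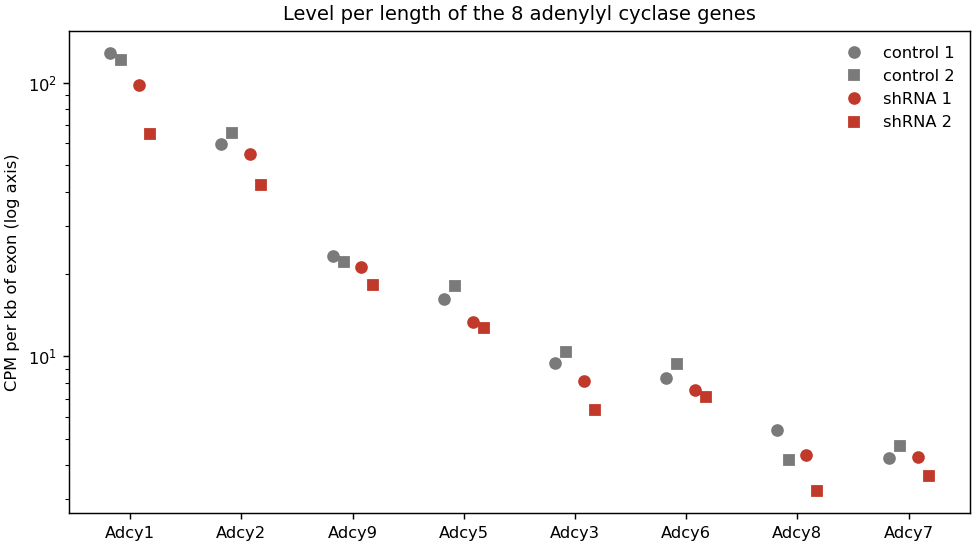
CPM per kilobase of annotated exon (log axis) of each adenylyl cyclase gene in the 4 samples, ordered by control mean; grey is control, red is *Ash1L* shRNA, circles are replicate 1 and squares are replicate 2. *Adcy1* is highest in every sample, with a control mean of 125, and *Adcy8* and *Adcy7* are lowest and overlap.

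The calcium-stimulated and calcium-inhibited isoforms were compared within each sample, as the mean log2 CPM of *Adcy1* and *Adcy8* minus that of *Adcy5* and *Adcy6*. This difference was 1.71 and 1.32 in control samples 1 and 2, and 1.58 and 1.14 in *Ash1L* shRNA samples 1 and 2. The groups overlapped, with means of 1.52 ± 0.28 and 1.36 ± 0.31 (SD, n = 2 each). The difference between the means, -0.16 on the log2 scale, was smaller than either SD. It turned to 0.037 without control sample 1 and to 0.063 without *Ash1L* shRNA sample 2, and was -0.35 without control sample 2 and -0.38 without *Ash1L* shRNA sample 1. No difference between the classes was therefore detectable beyond the spread between these samples.

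The spread over samples was wider for the stimulated class. Relative to the control mean, the stimulated isoforms stood at a mean log2 level of 0.11 and -0.11 in control samples 1 and 2, and the inhibited isoforms at -0.09 and 0.09. In *Ash1L* shRNA samples 1 and 2 the stimulated isoforms stood at -0.23 and -0.75, and the inhibited isoforms at -0.29 and -0.37. In *Ash1L* shRNA sample 1 the classes were therefore close, and in sample 2 the stimulated class was lower, led by *Adcy1*. The other 4 isoforms stood at -0.16 and -0.45. By pairs of genes, the *Ash1L* shRNA minus control difference of the log2 ratio was -0.25 for *Adcy1* over *Adcy5* and -0.37 for *Adcy1* over *Adcy6*. It was 0.055 for *Adcy8* over *Adcy5* and -0.064 for *Adcy8* over *Adcy6*, so any lean toward a lower stimulated class came from *Adcy1*. These values were not tested, since a score over chosen members has no test here.

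**Figure D3:**
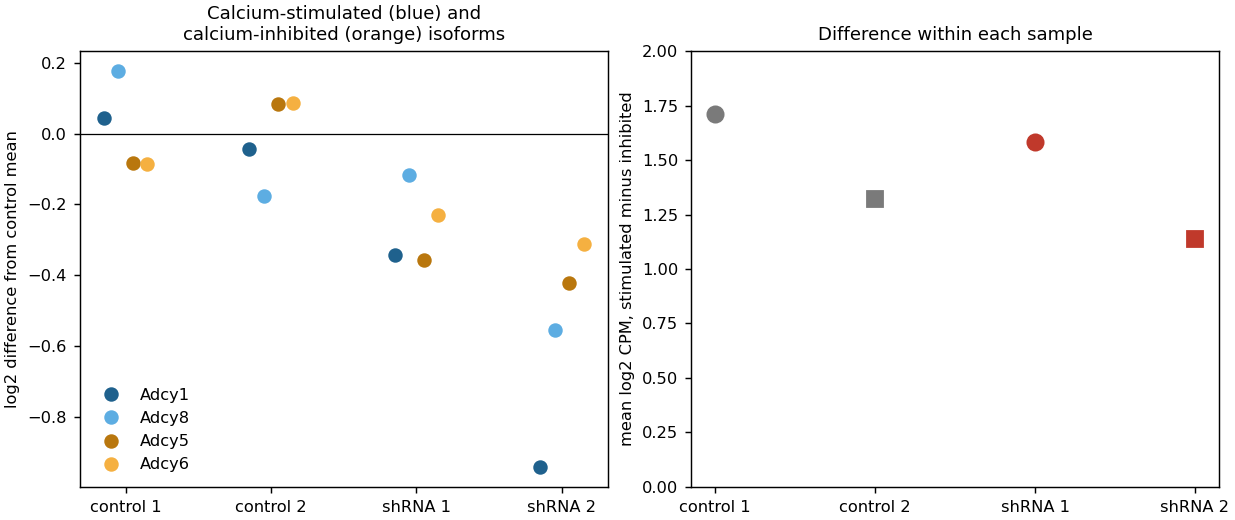
Left, log2 difference of each isoform of the calcium-stimulated and calcium-inhibited classes from its control mean in the 4 samples, with *Adcy1* and *Adcy8* in blues and *Adcy5* and *Adcy6* in oranges. Right, mean log2 CPM of the stimulated minus the inhibited pair, which was 1.71 and 1.32 in control (grey) and 1.58 and 1.14 in *Ash1L* shRNA samples (red), with overlapping groups.

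The genes around the cyclases in the cAMP pathway were split more evenly. Of 74 listed genes, all of which were tested, 41 had a lower and 33 a higher mean level, 10 were DOWN and 5 were UP, beside 8.28% DOWN and 8.61% UP over all genes tested. Their median log2 fold change was -0.05, against -0.35 for the 8 cyclases and -0.00273 for all genes. None had an adjusted p under 0.05 by edgeR's quasi-likelihood test, where 15 had an unadjusted P under 0.05, and 1 gene, *Adcyap1*, did by DESeq2 and by edgeR's likelihood ratio test. The 10 DOWN became 4 of 74 without control sample 1 (4.14% of all genes), 0 without control sample 2 (1.86%), 16 without *Ash1L* shRNA sample 1 (16.5%) and 6 without *Ash1L* shRNA sample 2 (5.05%).

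Upstream of the enzymes, 2 of 7 G protein alpha subunit genes were DOWN and none was UP. Here and in the lists that follow, counts are read against 8.28% DOWN and 8.61% UP over all genes. The lists are short, so a few calls in one say little about it. *Gnao1*, which encodes the abundant neuronal Go subunit, had 328 and 343 CPM in control samples and 267 and 201 CPM in *Ash1L* shRNA samples (log2 fold change -0.52 ± 0.16, SE). *Gnal*, which encodes the olfactory and striatal stimulatory subunit, had 177 and 180 CPM in control samples and 151 and 120 CPM in *Ash1L* shRNA samples (-0.39 ± 0.14). *Gnas*, which encodes the common Gs subunit, had 1028 and 931 CPM in control samples and 1153 and 1047 CPM in *Ash1L* shRNA samples and was not called. It is named after its values were seen, for its role.

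Among 15 genes for Gs-coupled receptors and their peptide ligands, 1 was UP and 1 DOWN. *Adcyap1*, which encodes PACAP, a neuropeptide whose receptor activates adenylyl cyclase, had 34.9 and 31.2 CPM in control samples and 74.1 and 60.9 CPM in *Ash1L* shRNA samples. Both *Ash1L* shRNA samples lay far above both controls, and the log2 fold change of 1.03 ± 0.15 (SE) was the largest of the 74 genes. Its adjusted p was 0.234 by edgeR's quasi-likelihood test and 3.7e-05 by DESeq2. *Htr7*, a Gs-coupled serotonin receptor gene, had 8.57 and 9.95 CPM in control samples and 6.28 and 5.89 CPM in *Ash1L* shRNA samples (-0.61 ± 0.21). The median over the 15 genes was 0.12.

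Among the phosphodiesterases, which break cAMP down, 1 of 16 was DOWN and 1 UP, near the shares of all genes (8.28% and 8.61%). *Pde2a* had 440 and 483 CPM in control samples and 365 and 362 CPM in *Ash1L* shRNA samples (-0.34 ± 0.11). *Pde10a*, the main phosphodiesterase of striatal neurons, had 84.6 and 73.6 CPM in control samples and 102 and 94.6 CPM in *Ash1L* shRNA samples (0.31 ± 0.12), and it was not called by DESeq2 or by edgeR's likelihood ratio test. The list's median log2 fold change was -0.05, against -0.35 for the cyclases that make cAMP.

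Downstream, 1 of 6 protein kinase A subunit genes was DOWN and 1 UP. *Prkaca*, a catalytic subunit gene, had 131 and 158 CPM in control samples and 111 and 87.3 CPM in *Ash1L* shRNA samples (-0.54 ± 0.16). *Prkar2a*, a regulatory subunit gene, had 73.3 and 53.4 CPM in control samples and 87.1 and 103 CPM in *Ash1L* shRNA samples (0.59 ± 0.18). Regulatory subunits hold the catalytic subunits inactive until cAMP binds. *Pkig*, which encodes an inhibitor of the kinase, was the 1 DOWN gene of 3 inhibitors (-0.51 ± 0.16), and *Akap6*, which anchors the kinase at membranes, was the 1 DOWN gene of 8 anchoring proteins (-0.44 ± 0.17).

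The Epac genes were called in opposite directions, *Rapgef3* DOWN (-0.40 ± 0.13) and *Rapgef4* UP (0.36 ± 0.14). In the CREB family and its coactivators, 1 of 6 genes was UP. It was *Crem*, itself a target of CREB, with 20.5 and 18.8 CPM in control samples and 26.2 and 39.9 CPM in *Ash1L* shRNA samples (0.75 ± 0.22). Among 9 genes for calmodulin and its enzymes, which link calcium to AC1 and AC8, 2 were DOWN, *Camk4* (-0.47 ± 0.16) and *Camk2a* (-0.42 ± 0.17), and none was UP. Of the cyclases outside the 8, *Adcy4* had 4.68 and 4.50 CPM in control samples and 5.48 and 6.90 CPM in *Ash1L* shRNA samples. It thus lay higher in both *Ash1L* shRNA samples, opposite to the 8, and was not called (log2 fold change 0.43 ± 0.25, adjusted p of 0.413 by edgeR's test).

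**Figure D4:**
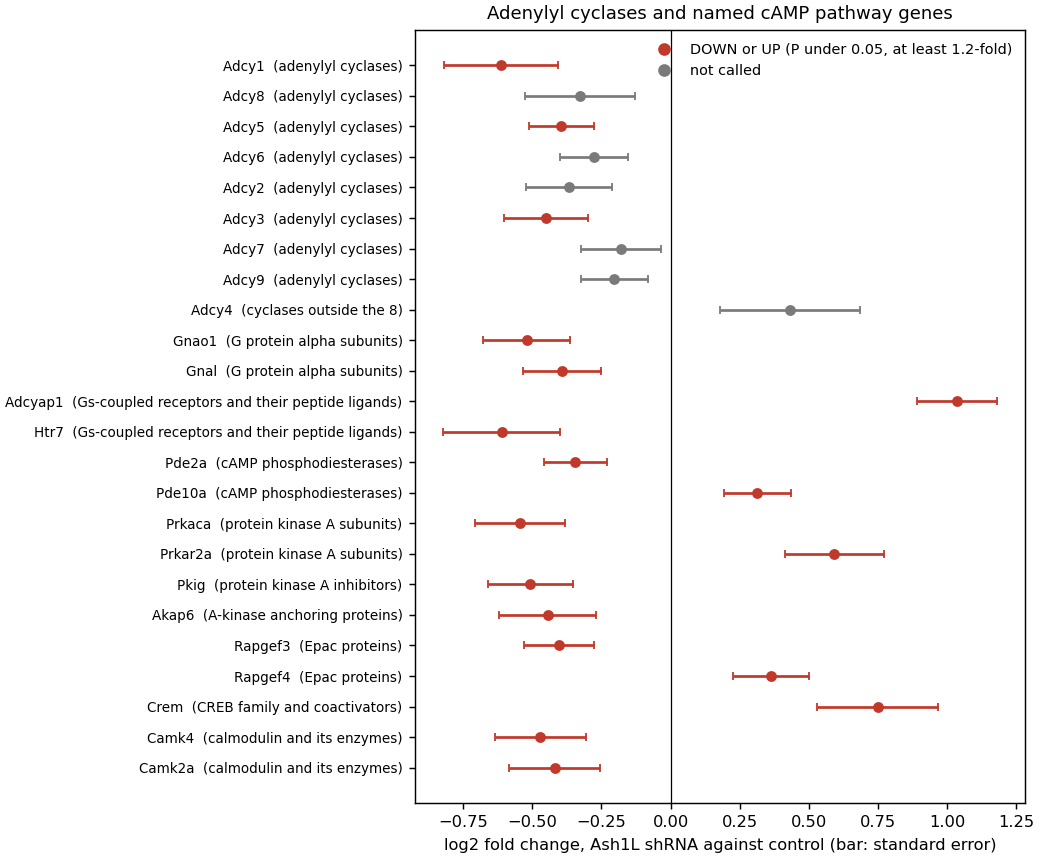
Log2 fold change of *Ash1L* shRNA against control (bars, standard error) for the 8 adenylyl cyclases, *Adcy4* and the DOWN and UP genes of the cAMP pathway lists; red marks genes that were DOWN or UP. The 8 cyclases run from -0.61 to -0.18, *Adcy4* stands at 0.43 and *Adcyap1* at 1.03.

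For each DOWN cyclase, the pathway genes with the most similar profile were found among the other 81 genes listed, as the smallest root mean square difference of log2 level from the control mean over the 4 samples. For *Adcy1* they were *Gnao1* (0.115) and the phosphodiesterase gene *Pde11a* (0.134). For *Adcy5* they were *Pde2a* (0.040) and *Adcy6* (0.084), and for *Adcy3* they were *Pkig* (0.040) and *Camk4* (0.051). Neighbours were chosen on these same values, so a pattern shared with the cyclase follows from the choice and is no separate result. *Pde11a* was low, at 4.11 and 3.91 CPM in control samples and 2.92 and 2.32 CPM in *Ash1L* shRNA samples. Since 4 samples of 2 groups were used, many genes can lie as near.

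Cell type markers also differed between the groups, and their counts are read against 8.28% DOWN and 8.61% UP over all genes. In bulk tissue, fewer cells of a type and less RNA per cell cannot be told apart from these counts. By staining for the neuronal marker NeuN, the study saw no significant neuron loss in PFC given the *Ash1L* shRNA virus. That staining was of neurons as a whole. Of 8 excitatory neuron markers, 4 were DOWN and none UP. Their median log2 fold change was -0.40, and their summed level was 2586 and 3062 CPM in control samples against 2373 and 1997 CPM in *Ash1L* shRNA samples. *Slc17a7*, the vesicular glutamate transporter gene that defines cortical excitatory neurons, had 924 and 1069 CPM in control samples and 867 and 754 CPM in *Ash1L* shRNA samples. It was not called. Log2 fold changes in this list ran from -0.76 for *Tbr1* to -0.05 for *Cux2*. The summed excitatory markers, like the summed cyclases, were below both controls in both *Ash1L* shRNA samples and lowest in sample 2. So were the summed interneuron, astrocyte and leukocyte markers. Of 8 interneuron markers 5 had a lower and 3 a higher mean level, and 3 were DOWN (median -0.31, summed level 792 and 710 against 696 and 674 CPM). Of the genes that mark interneurons as a class, *Gad2* and *Slc32a1* had higher means with overlapping groups. *Gad1* was lower in both *Ash1L* shRNA samples (232 and 258 CPM) than in controls (280 and 277 CPM). None of these class markers was called. Of 8 astrocyte markers 6 were DOWN (median -0.71, summed level 5425 and 5725 against 4367 and 3234 CPM).

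The striatal neuron list, 8 genes, ran the other way, with 2 UP, 1 DOWN and a median of 0.60, and its summed level was 156 and 159 CPM in control samples, 165 in *Ash1L* shRNA sample 1 and 266 in *Ash1L* shRNA sample 2. *Adcy5*, *Gnal* and *Pde10a* are all strongly expressed in the striatum. *Adcy5* and *Gnal* were DOWN and *Pde10a* was UP, and whether striatal tissue had a part in their levels was not tested. Of 8 leukocyte markers 6 were DOWN (median -2.44), but their summed level was low, at 42.5 and 82.0 CPM in control samples and 33.5 and 18.6 CPM in *Ash1L* shRNA samples. The microglia list had no DOWN or UP gene of 6 and a summed level of 445 and 476 CPM in control samples, 510 in *Ash1L* shRNA sample 1 and 235 in *Ash1L* shRNA sample 2. The oligodendrocyte list (6 genes, median -0.26) and the endothelial list (5 genes, median 0.06) had no DOWN or UP gene. Their summed levels were 2503 and 2818 against 2696 and 2371 CPM, and 178 and 160 against 182 and 171 CPM. No marker was at 0 in any sample, and the part of these markers in the levels of the cyclases was not tested.

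**Figure D5:**
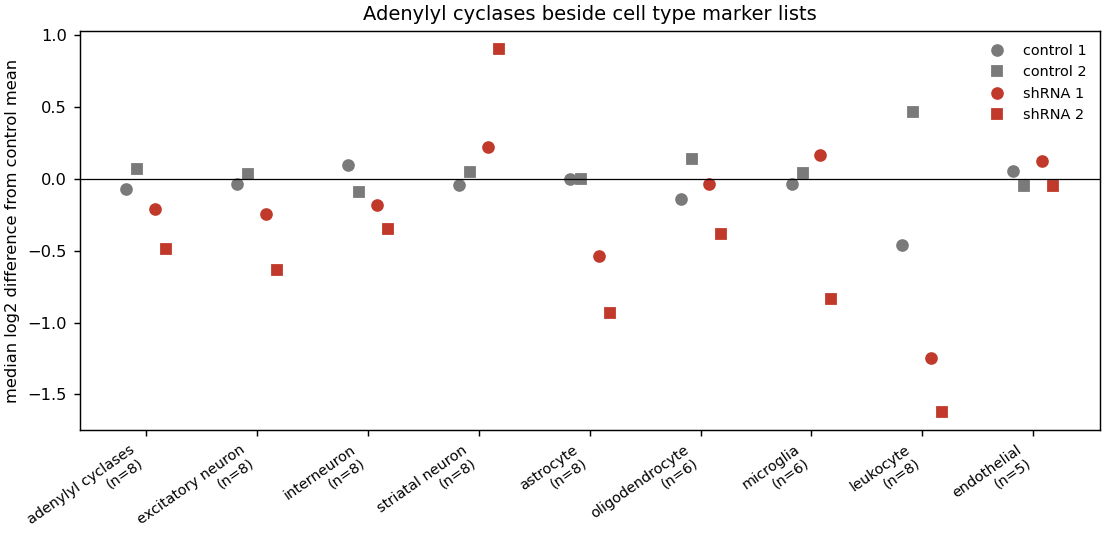
Median log2 difference from the control mean in each sample for the 8 adenylyl cyclases and for each cell type marker list (n, genes in the list); grey is control, red is *Ash1L* shRNA, circles are replicate 1 and squares are replicate 2. The cyclase medians are -0.21 and -0.49 in *Ash1L* shRNA samples 1 and 2. In the same order, they are -0.25 and -0.63 for excitatory neuron, -0.18 and -0.35 for interneuron and -0.04 and -0.38 for oligodendrocyte markers. Astrocyte markers stand at -0.535 and -0.934, leukocyte markers at -1.244 and -1.621 and microglia markers at 0.162 and -0.833. Striatal neuron markers stand at 0.224 and 0.9, and endothelial markers at 0.121 and -0.048.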

How the data were processed

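RNA of 2 control and 2 *Ash1L* shRNA PFC samples was sequenced from ribosomal RNA-depleted, stranded libraries. The authors aligned reads to mm10 with STAR and deposited raw counts per gene symbol from featureCounts; the library protocol in the labels instead names Cutadapt and TopHat2. Whether counting used strand or multiply mapped reads is not given in the sources used here, so overlapping genes can share reads. All count columns were used. Counts were filtered (filterByExpr), scaled by TMM and tested with edgeR 4.0.16 (glmQLFit robust, glmQLFTest; R 4.3.3), with Benjamini-Hochberg adjustment over 16232 genes. SE was obtained as log2 fold change over the root of the F statistic. Log2 levels are log2(CPM + 0.5), which understates differences of low genes. The labels call the samples biological duplicates.

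Positions and lengths came from GENCODE vM21 (mm10), where 93.0% of symbols and all 8 members matched, and promoters from RefSeq. Members, calcium classes and lists were chosen with earlier results of these data known. Named genes were the members, *Ash1l*, every DOWN or UP gene of each pathway list (otherwise its most abundant gene), and the 2 nearest profiles of each DOWN member. *Drd1* was held under its older symbol. Alternatives included DESeq2 1.42.0, other scalings and filters, a replicate block, a length offset, leaving out single samples and a 1.5-fold limit. The procedure was tested on simulated data.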

Additional observations from a re-analysis of the deposited data

How the results depend on the processing

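All 8 cyclases kept a log2 fold change below 0 under every alternative run, 120 values in all, of which 108 kept their side of the threshold. The number DOWN, 3 with all samples, was 1 at a 1.5-fold limit (*Adcy1*) and ran from 0 to 6 with each sample left out. It was 4 with DESeq2 and without a filter, where *Adcy2* was added. With all samples kept, none of the 8 had an adjusted p under 0.05 in any alternative. The fits with a sample left out are described above, beside the shares of all genes. Replicate numbers are shared by the groups, but same-numbered samples did not deviate together (correlation -0.11), so no pairing was assumed. The replicate block left 3 members DOWN, and a block with the numbers crossed, chosen after seeing the data, gave 4. Among the 74 pathway genes, 10 DOWN became 6 under the replicate block and 1 at a 1.5-fold limit and ran from 0 to 16 with samples left out. The 5 UP became 3 under the replicate block, 3 at a 1.5-fold limit and 1 to 9 with samples left out. The difference between stimulated and inhibited isoforms ran from -0.16 to -0.13 with all samples and from -0.38 to 0.063 with samples left out. Over all genes, 1344 DOWN and 1397 UP became 1020 and 1052 under the replicate block and 1736 and 1541 under the crossed block. At a 1.5-fold limit they became 491 and 765. Leaving out single samples moved them from 306 to 2718 and from 423 to 2368. The length offset covered 93.7% of the genes tested. The cause of these shifts was not tested, apart from the stricter limit, which can only remove calls.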
